A study of Homo sapiens with 6 samples.

Results

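NRF3 knockdown was profiled in HCT116, a human colon cancer cell line that carries p53, by setting the array of cells given siRNA against NRF3 beside the array of cells given control siRNA. Of 18417 genes named by a single symbol, the 14034 with a log2 intensity of at least 6 on either HCT116 array were compared, each through the probe set with the highest mean over the 6 arrays of the study. RNA of both HCT116 groups was taken 48 h after transient transfection, and the labels separate them only by the siRNA. The same knockdown in HCT116-p53KO, the p53-deficient form of the line, shares no array with it and is given alongside, and H1299 lung carcinoma cells stably expressing GFP or NRF3 make up the remaining arrays. Neither the siRNA sequences nor whether HCT116-p53KO is 1 clone is given in the sources used here.

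NRF3, the product of NFE2L3, belongs to the cap'n'collar family of basic leucine zipper transcription factors with NRF1 and NRF2. These proteins pair with small MAF proteins and bind antioxidant response elements. NRF3 is held in the endoplasmic reticulum membrane and reaches the nucleus after processing, and its transcript is known to be abundant in colorectal tumours. p53 is a stress-activated transcription factor that induces cell cycle inhibitors and death genes.

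Each group had 1 array, so no value below has a replicate error, no test was possible, and a difference describes these arrays rather than the condition. Values are RMA log2 intensities. Paired levels are given with control siRNA first and NRF3 siRNA second, and a difference is NRF3 siRNA minus control siRNA on the log2 scale, where 1 is 2-fold. The sole gauge inside the arrays was the spread between probe sets of the same gene, an SD of 0.188 over 570 genes. It leaves out any spread between cultures. Probe sets of a gene are not always separate readings, as some of PDPK1 hold equal values on both arrays. The SD may therefore be too small.

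The targeted transcript was lower on the NRF3 siRNA array, where NFE2L3 stood at 6.62 after 8.97 with control siRNA, and it ranked 2 among the lowest of all genes compared. In HCT116-p53KO the same transcript stood at 8.71 and 7.15, a smaller difference of -1.55 against -2.35, and this gap lies beside every comparison of the lines. Colon epithelial markers passed the level cut in part. With control siRNA 12 of 17 reached 6, among them EPCAM, CDH1, KRT8, KRT18 and CDX2, while KRT20, VIL1, CDH17, GPA33 and MUC13 did not. Of markers of other cell types, 6 of 11 fibroblast or mesenchymal markers reached that level, COL1A1 and VIM among them, as did 2 of 5 of lung epithelium, 1 of 5 of blood and 0 of 3 of endothelium. The median of all probe sets on the control array was 6.98, so a value just above 6 does not by itself show that a marker was expressed. The gene that encodes p53 is not analysed here.

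Differences were narrow for most genes. The median difference was 0.01, the middle 95% lay between -0.79 and 0.60, and the middle 50% between -0.21 and 0.20. At 2-fold the knockdown was lopsided, with 144 genes (1.03%) lower and 31 (0.221%) higher, so that 82.3% of the genes past 2-fold were lower. When the arrays were quantile-normalized again over all 6 arrays, 121 were lower and 47 higher, and the lower share was 72.0%. At 1.5-fold, 845 genes (6.02%) were lower and 381 (2.71%) higher, while 48.4% of all genes lay below 0 and 51.6% above it. These percentages are the background for every count below.

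**Figure D1:**
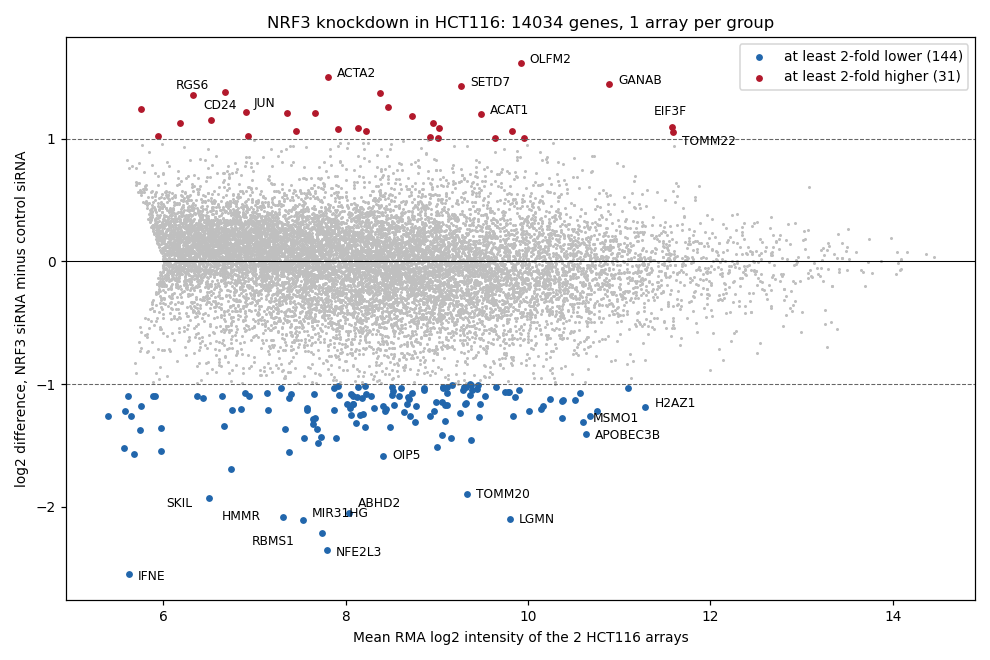
Log2 difference (NRF3 siRNA minus control siRNA) of 14034 genes against their mean RMA log2 intensity on the 2 HCT116 arrays, 1 point per gene. Blue points are the 144 genes at least 2-fold lower and red points the 31 at least 2-fold higher, with selected genes named, and dashed lines mark 2-fold.

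The lower genes were not spread evenly over gene length or level, taken as 5 bins of equal size. In bin 1, the genes with the shortest span on the genome, 2.96% were at least 1.5-fold lower, and in bin 4, with spans of 35.6 to 80.9 kb, 8.63% were. The share at least 1.5-fold higher stayed between 2.64% and 2.82% over the same bins. By level, 3.67% of the dimmest bin and 8.19% of bin 4 were at least 1.5-fold lower. Among chromosomes with over 100 genes compared, 19 and 22 held the smallest shares of such genes, 1.77% and 1.90%, and chromosome 18 the largest, 10.9%. Whether span or level had a part in any gene's difference was not tested.

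**Figure D2:**
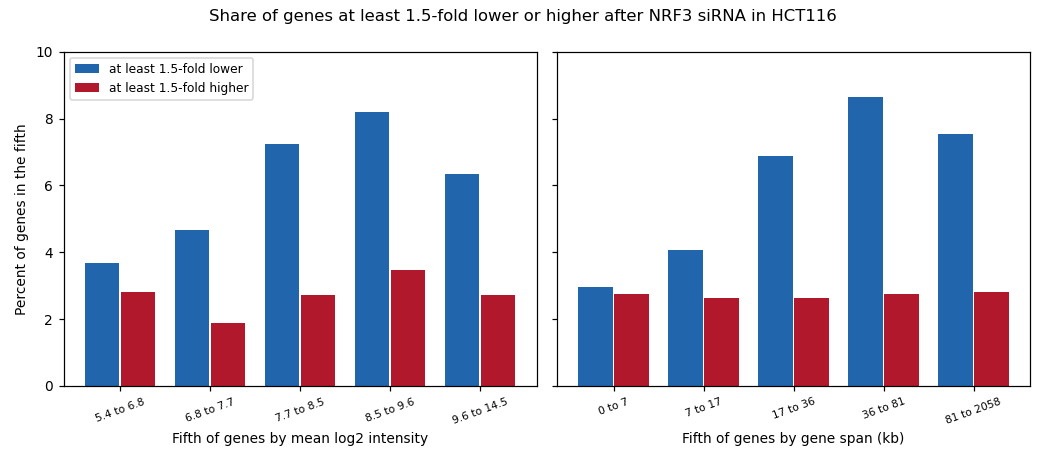
Percent of genes at least 1.5-fold lower (blue) or higher (red) after NRF3 siRNA in HCT116, in 5 bins of equal size by mean log2 intensity (left) and by gene span in kb (right). The lower share changes across the bins, from 2.96% to 8.63% by span, while the higher share stays between 2.64% and 2.82% by span.

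Genes of cell division made up the broadest group of lower transcripts. Over 7 lists with 170 genes compared, 146 were lower, 65 by at least 1.5-fold and 17 by at least 2-fold, and the median was -0.45 against 0.01 for all genes. Only CCNE2 and ZW10 among them were at least 1.5-fold higher. In HCT116-p53KO the median of the same lists was 0.02, with 82 of 169 members below 0, where 49.5% of all genes were, and 6 at least 1.5-fold lower against 2.38% of all genes. That difference between the lines was not tested. In a bulk sample, fewer cells in a cell cycle phase and less RNA per cell cannot be told apart.

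The promoters of 6 lower genes are printed below, all of cell division except the sterol gene MSMO1. They have the largest differences among division and sterol genes past 1.5-fold whose window held a match to a searched motif. That each window holds a match was thus fixed by the choice. Windows are RefSeq promoters of GRCh38.p14, 250 bases before to 50 after the annotated start, and positions count from 0 at the start. Capitals mark matches, on either strand, to the motifs searched: the cell cycle homology region TTTGAA, where the DREAM and B-MYB complexes act on mitotic genes, the CCAAT box, the E2F sites TTTGGCGC and TTTCCCGC, the antioxidant response element TGACNNNGC, the MAF recognition element, the sterol regulatory element TCACNCCAC, the TATA box TATAAA, the amino acid response element TGATGNAAN, the NF-kappaB site, the CArG box and the full p53 site without spacer. Overlapping matches were all counted, so that capitals can run together. The match to TGATGNAAN in SGO2 is marked without the last letter, N, which stands for any base. OIP5 lies on the minus strand of chr15:41332542-41332841 and KIF14 on the minus strand of chr1:200620702-200621001. The others lie on plus strands: HMMR at chr5:163460382-163460681, SGO2 at chr2:200525892-200526191, ANLN at chr7:36389612-36389911 and the sterol enzyme gene MSMO1 at chr4:165327419-165327718.
HMMR: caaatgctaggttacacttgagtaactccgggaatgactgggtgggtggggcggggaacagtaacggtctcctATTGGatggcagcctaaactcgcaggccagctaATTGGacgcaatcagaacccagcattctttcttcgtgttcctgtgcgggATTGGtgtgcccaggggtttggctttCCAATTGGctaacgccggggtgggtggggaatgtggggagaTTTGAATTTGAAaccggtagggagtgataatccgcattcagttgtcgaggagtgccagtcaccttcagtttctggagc
ANLN: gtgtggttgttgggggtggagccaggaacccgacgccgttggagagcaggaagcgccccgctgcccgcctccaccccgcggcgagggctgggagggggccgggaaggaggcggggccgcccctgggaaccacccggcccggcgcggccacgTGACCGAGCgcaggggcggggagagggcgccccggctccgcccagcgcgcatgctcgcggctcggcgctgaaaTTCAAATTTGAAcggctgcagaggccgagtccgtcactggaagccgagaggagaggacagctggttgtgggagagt
KIF14: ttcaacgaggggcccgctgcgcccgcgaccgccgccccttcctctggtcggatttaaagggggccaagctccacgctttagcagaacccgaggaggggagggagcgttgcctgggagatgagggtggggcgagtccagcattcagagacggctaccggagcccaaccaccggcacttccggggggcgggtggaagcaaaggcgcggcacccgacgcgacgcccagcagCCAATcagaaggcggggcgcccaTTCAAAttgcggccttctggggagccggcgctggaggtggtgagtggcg
OIP5: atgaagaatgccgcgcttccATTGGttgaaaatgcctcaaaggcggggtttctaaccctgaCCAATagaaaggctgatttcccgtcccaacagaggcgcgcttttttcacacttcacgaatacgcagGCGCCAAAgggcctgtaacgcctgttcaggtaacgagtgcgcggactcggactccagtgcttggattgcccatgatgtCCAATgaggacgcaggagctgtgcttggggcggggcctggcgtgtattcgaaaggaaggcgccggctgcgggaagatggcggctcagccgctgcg
SGO2: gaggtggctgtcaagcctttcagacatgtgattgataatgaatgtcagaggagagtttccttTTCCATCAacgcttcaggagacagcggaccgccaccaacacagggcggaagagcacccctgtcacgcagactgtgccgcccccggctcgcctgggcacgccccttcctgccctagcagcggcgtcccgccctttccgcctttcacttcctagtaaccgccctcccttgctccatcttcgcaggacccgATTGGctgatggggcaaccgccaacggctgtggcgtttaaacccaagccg
MSMO1: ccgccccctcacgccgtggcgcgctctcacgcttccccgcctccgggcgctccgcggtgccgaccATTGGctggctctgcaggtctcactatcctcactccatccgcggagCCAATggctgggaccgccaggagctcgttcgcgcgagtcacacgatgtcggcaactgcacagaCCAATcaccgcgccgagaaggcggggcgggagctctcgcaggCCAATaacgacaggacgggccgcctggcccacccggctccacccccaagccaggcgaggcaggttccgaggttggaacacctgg

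HMMR carries TTTGAA in a tandem pair, at -28 to -23 and at -22 to -17, and ANLN carries a pair at -26 to -21 and at -20 to -15 that reads in opposite directions. KIF14 has 1 match, at 1 to 6, with a CCAAT box at -22 to -18 ahead of it. OIP5 has no TTTGAA but an E2F match at -123 to -116, and MSMO1 has 4 CCAAT boxes and no other match. Among cell division genes with a window, TTTGAA was found in 64 of 144 (44.4%), in 32 of the 57 at least 1.5-fold lower (56.1%) and in 32 of the other 87 (36.8%). Over all 27305 windows of the table, 15.4% held it, and those windows are poorer in G and C, with a median of 58.3% against 62.7% in the division genes. The share over the genes compared here is void as a background, because 78.4% of them had a window. CCAAT was found in 61.4% of the 57 and in 55.2% of the 87, and in 35.7% of all windows. The antioxidant response element was found in 19.3% of the 57, 18.4% of the 87 and 13.6% of all windows. Among all genes at least 2-fold lower, 26 of 121 windows (21.5%) held TTTGAA, and among those at least 2-fold higher 1 of 28 did. The antioxidant response element was found in 12 of the 121 (9.9%) and in 8 of the 28 (28.6%), against 13.6% of all windows. With only 28 windows, the shares among the higher genes rest on few genes and draw no conclusion. A match in these letters is a description of the window and was not tested as a site.

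Mitotic kinesins, the motors that build the spindle and move chromosomes, were lower without exception, 13 of 13, and 11 by at least 1.5-fold, and their median was -0.75 against 0.02 in HCT116-p53KO. KIF14, a cytokinesis motor, stood at 8.77 and 7.45 in HCT116 and at 8.62 and 8.43 in HCT116-p53KO. The kinetochore motor CENPE stood at 7.35 and 6.14, with no such gap in HCT116-p53KO (7.41 and 7.45). KIF18A, which shortens kinetochore microtubules, differed by -0.92 in HCT116 and 0.11 in the other line, and KIF20B, needed late in cytokinesis, by -0.87 and 0.30. KIF22 (-0.40) and KIFC1 (-0.35) were the 2 members short of 1.5-fold.

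Spindle, centrosome and cytokinesis genes formed a second list in which every member compared was lower, 30 of 30, and 15 by at least 1.5-fold, and their median was -0.63. HMMR, a spindle protein and hyaluronan receptor, stood at 8.35 and 6.27, or 4.25-fold lower, and at 7.93 and 7.19 in HCT116-p53KO. ANLN, which scaffolds the contractile ring, stood at 11.01 and 9.73. ECT2, the exchange factor that activates RHOA at the cleavage site, stood at 10.62 and 9.39. These 3 also were lower in HCT116-p53KO, by -0.74, -0.45 and -0.40. The centriole genes STIL (-0.95), SASS6 (-0.74) and CEP135 (-0.73), the microcephaly gene ASPM (-0.81) and the proliferation antigen MKI67 (-0.69) followed in HCT116. Of those, SASS6, CEP135 and ASPM lay above 0 in HCT116-p53KO, at 0.33, 0.06 and 0.18.

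At the kinetochore, the structure that ties chromosomes to microtubules, 24 of 27 genes were lower, 14 by at least 1.5-fold, and their median was -0.61 against 0.05 in HCT116-p53KO. OIP5, part of the complex that loads the centromeric histone, stood at 9.20 and 7.61. CENPC, which anchors the inner kinetochore, stood at 7.46 and 6.26, and NUF2, a subunit of the microtubule-binding NDC80 complex, at 8.60 and 7.43. In HCT116-p53KO OIP5 was also lower, by -0.95, while CENPC differed by -0.12 and NUF2 by 0.24. The outer scaffold KNL1 (-0.96) and the NDC80 partners NDC80 (-0.73) and SPC25 (-0.61) were lower, while SPC24 differed by -0.08. ZWINT (0.30), SKA2 (0.24) and CENPP (0.15) were the 3 members above 0.

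Checkpoint and chromosomal passenger genes, which hold anaphase until chromosomes attach, were lower in 15 of 18, and 8 by at least 1.5-fold. The cohesin protectors SGO2 (-1.37) and SGO1 (-1.10) and the checkpoint kinase TTK (-1.20) differed most. The mitotic kinases AURKA (-0.97), BUB1 (-0.84) and PLK1 (-0.71) were also past 1.5-fold. Their partners were not all so: AURKB differed by -0.19, BUB3 by -0.21 and BIRC5, the survivin gene, by 0.03. ZW10, which recruits checkpoint proteins to kinetochores, was higher in both lines, by 0.60 and 0.82.

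Condensin and cohesin genes, which shape and hold sister chromatids, were lower in 19 of 20, and the structural subunits SMC4 (-0.85), SMC3 (-0.85) and SMC2 (-0.84) were past 1.5-fold. In HCT116-p53KO these differed by -0.06, 0.17 and 0.07. ESCO2, the cohesin acetyltransferase, differed by -1.06, and the span of ESCO2 overlaps that of PBK (-1.05), so their probe sets may share signal. SMC4 likewise overlaps the microRNA gene MIR15B. Of 21 genes of the anaphase-promoting complex 18 were lower, the median being -0.30, though CDC20, its mitotic activator, at 12.55 and 11.90, was the only member past 1.5-fold.

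**Figure D3:**
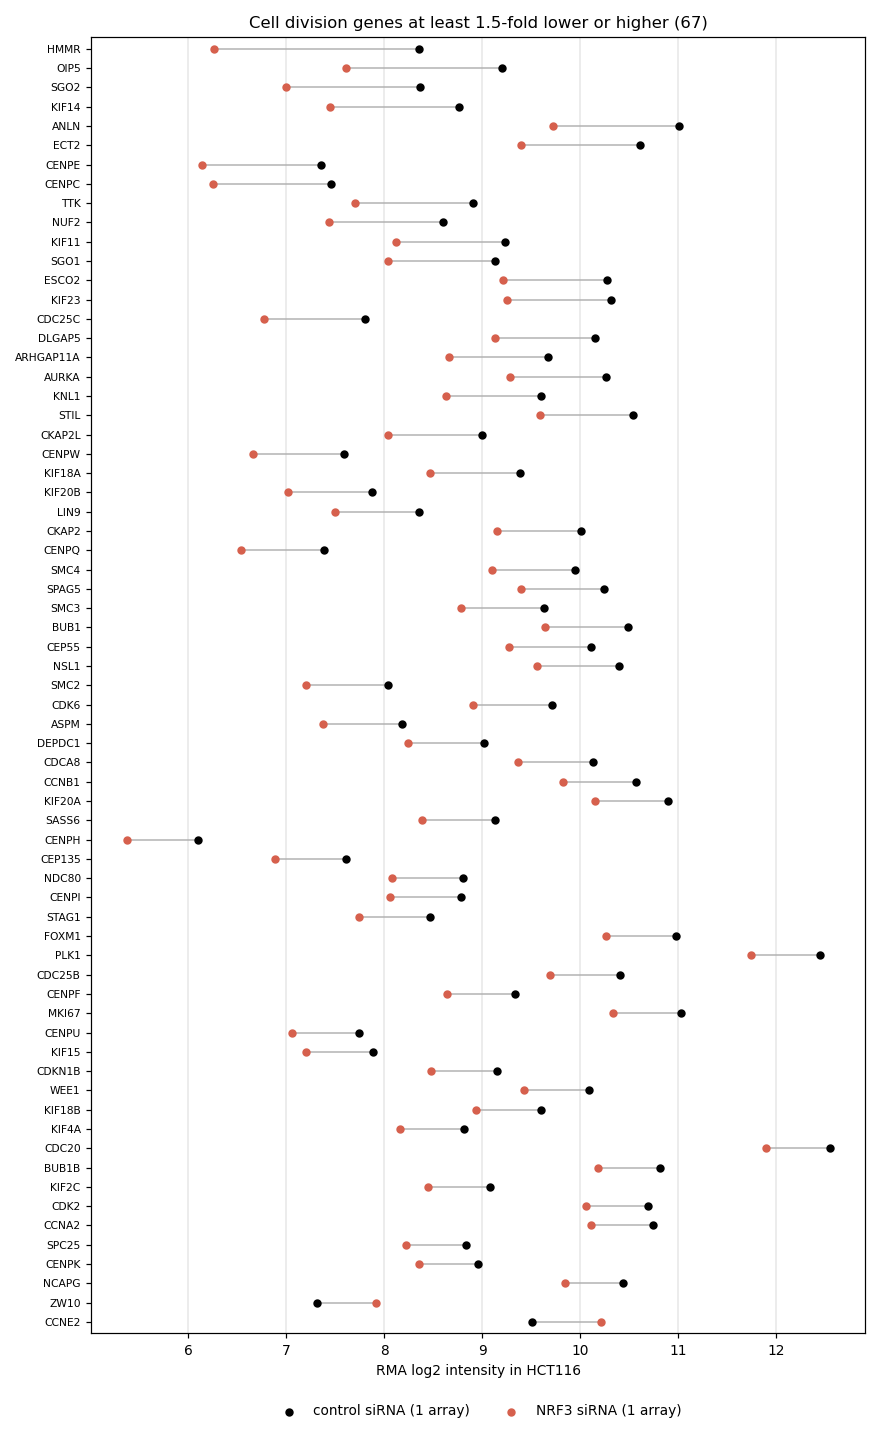
RMA log2 intensity of the 67 cell division genes at least 1.5-fold lower or higher in HCT116, with the control siRNA array in black and the NRF3 siRNA array in red, 1 array each. In all but ZW10 and CCNE2 the NRF3 siRNA point lies left of the control point.

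Cyclins, CDKs and their inhibitors were mixed, with 27 of 41 lower and a median of -0.19. The cyclins CCNB1 (10.57 and 9.82) and CCNA2 (10.74 and 10.12) and the phosphatases CDC25C (7.80 and 6.77) and CDC25B (10.40 and 9.69), which release CDK1, were at least 1.5-fold lower. CDK1 itself differed by -0.44 and the mitotic cyclin CCNB2 by 0.14. FOXM1, the transcription factor of mitotic genes, stood at 10.97 and 10.26, and LIN9, a subunit of the complex it works with, at 8.36 and 7.50. In HCT116-p53KO FOXM1 differed by -0.13 and LIN9 by -0.05. CDK6, the G1 kinase, was lower by a like amount in both lines (-0.81 and -0.85), and the S phase cyclin CCNE2 was higher in both (0.70 and 0.64). CDKN1B, which encodes the CDK inhibitor p27, was lower in both, by -0.67 and -0.45.

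Most genes of DNA replication and recombination were lower, by smaller amounts. Of 25 licensing and origin genes 21 were lower with a median of -0.21, and only ORC3 and TOPBP1 (-0.71 each) were past 1.5-fold. The replicative helicase subunits MCM5 and MCM7 differed by -0.45 and -0.02, and their relative MCM8, which is not a subunit of that helicase, by -0.47. GMNN, the inhibitor of relicensing, differed by -0.57. Of 29 homologous recombination and Fanconi anaemia genes 27 were lower with a median of -0.27. RAD51AP1, which assists strand exchange, stood at 8.38 and 7.41, and FANCM, the fork remodeller, at 7.06 and 6.21. In HCT116-p53KO the medians of these lists were 0.16 and 0.17, with 19 of 25 and 24 of 29 members above 0, where 50.5% of all genes were. Of 36 fork and nucleotide supply genes 26 lay below 0, the median being -0.15 and, in HCT116-p53KO, 0.17. Mismatch and excision repair genes did not share this, with 13 lower and 12 higher and a median of -0.03 that became 0.04 on quantile normalization. In that list ERCC4, a repair nuclease subunit, differed by -0.95 and ERCC2, a helicase, by 0.61. Thymidylate synthase, TYMS (0.19), and the sliding clamp, PCNA (0.03), showed little difference in HCT116.

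Of 37 replication-dependent histone genes, transcribed in S phase, 29 lay below 0, the median being -0.40 against 0.01 in HCT116-p53KO. H2BC13 stood at 7.75 and 6.87 and H2BC7 at 11.55 and 10.74, and H2BC21 was higher by 0.84. Copies of histone genes are near-identical, so which copy a probe set measures is uncertain. The variant histone gene H2AZ1, outside that list, stood at 11.88 and 10.69.

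Direct p53 targets were higher on the NRF3 siRNA array in 26 of 33, 7 by at least 1.5-fold, and their median was 0.31, while in HCT116-p53KO 15 of 32 were higher with a median of -0.01. The classical arrest and feedback targets did not lead. CDKN1A, the gene of the CDK inhibitor p21, stood at 9.82 and 9.98, MDM2, the p53 ubiquitin ligase, at 10.92 and 10.86, and BAX, a pore-forming death gene, at 9.85 and 10.07. Larger differences belonged to XPC (6.51 and 7.49), which recognises DNA damage, BTG1 (8.71 and 9.66), an antiproliferative factor, PLK2 (9.52 and 10.47), a stress kinase, and PERP (9.79 and 10.64), a desmosome protein. XPC, PLK2 and PERP were also at or above 0.57 in HCT116-p53KO, at 0.57, 0.66 and 0.70. BTG1 (0.28), SESN1 (0.28), a sestrin, and TP53I3 (0.12), an oxidoreductase, lay lower there than their 0.94, 0.79 and 0.77 in HCT116. TP53INP1, a stress protein, was lower in both lines, by -0.67 and -1.61, and GDF15, a secreted stress cytokine, by -0.16 and -1.18. The death effectors BBC3 (0.52) and PMAIP1 (0.47) were above 0 and short of 1.5-fold in HCT116. Of 27 BCL2 family and caspase genes 14 were higher, with BCL2L1, the gene of the survival factor BCL-XL, at 10.84 and 11.49 and CASP9, the initiator caspase, at 8.39 and 7.63.

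The ATF4 program, which supplies amino acids under stress, was also higher, 21 of its 27 genes lying above 0 around a median of 0.26 against 0.14 in HCT116-p53KO. ATF4 itself stood at 10.22 and 10.96 in HCT116 and at 10.25 and 10.96 in HCT116-p53KO. Its metabolic targets PCK2 (7.44 and 8.38), ASNS (9.06 and 9.87) and CTH (6.57 and 7.34) were past 1.5-fold, as was the pseudokinase TRIB3 (8.14 and 8.78). The stress factor DDIT3 (0.36), the cystine transporter SLC7A11 (-0.13) and the glycine transporter SLC6A9 (-0.40) were not. The folding branch of endoplasmic reticulum stress did not share this, with 20 of 31 members lower, a median of -0.10 and HSPA5 at 0.12. GANAB, which trims glucose from new glycoproteins, stood apart in it at 10.17 and 11.61, or 2.72-fold higher, with 1.32 in HCT116-p53KO.

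**Figure D4:**
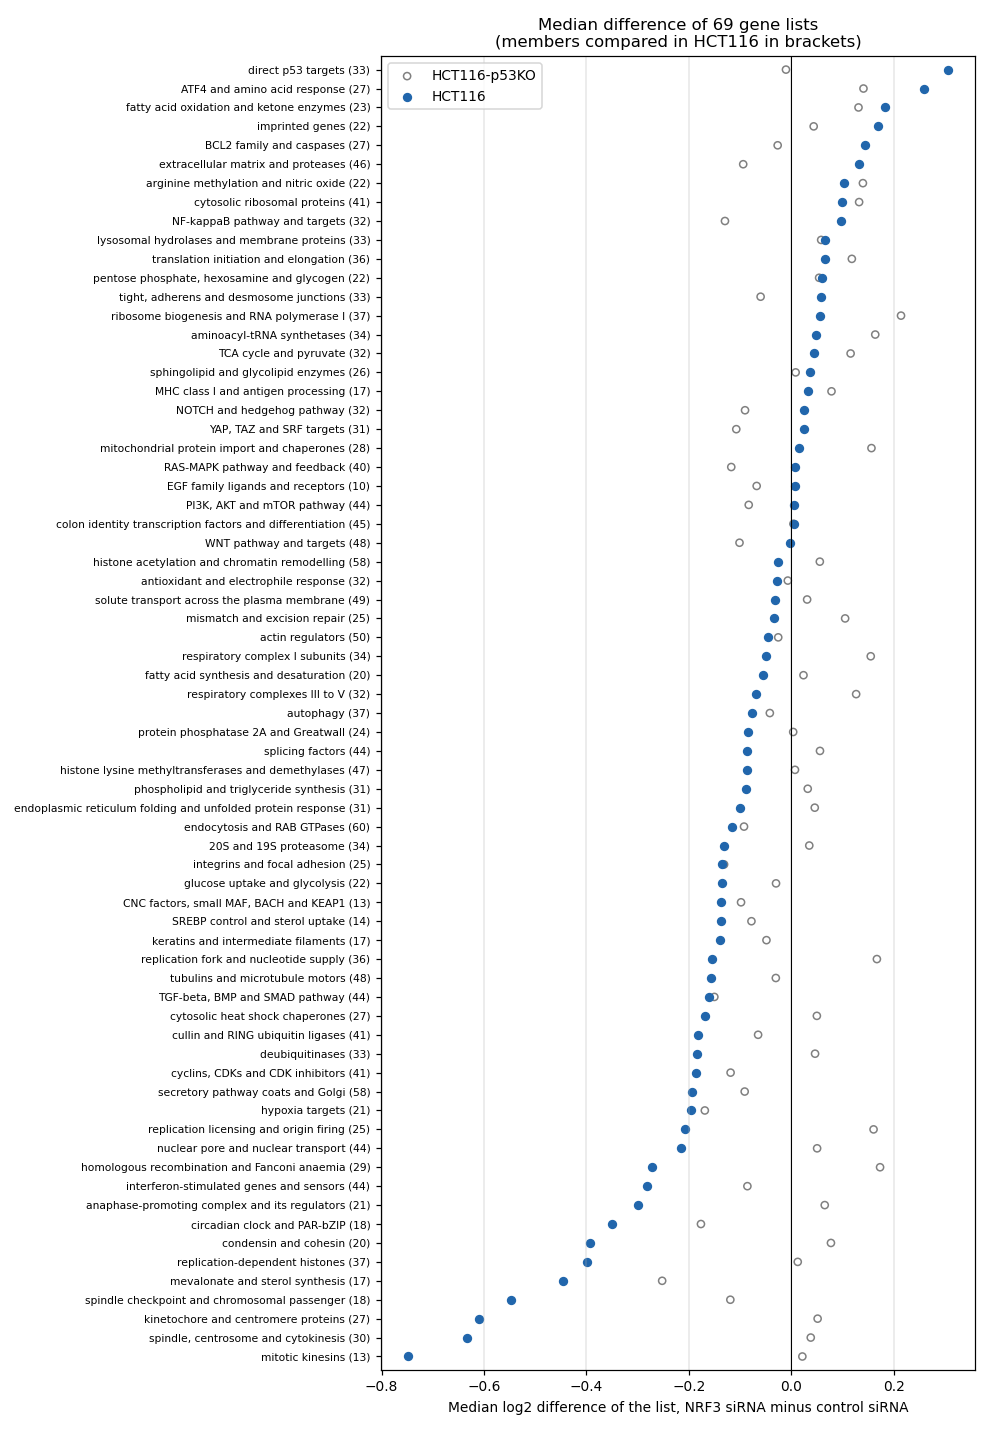
Median log2 difference (NRF3 siRNA minus control siRNA) of 69 gene lists in HCT116 (blue) and HCT116-p53KO (open circles), ordered by the HCT116 value, with members compared in HCT116 in brackets. The 4 lists at the bottom are mitotic, at -0.55 to -0.75 in HCT116, and direct p53 targets at the top, at 0.31.

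Most cholesterol synthesis genes were lower, 14 of 17 with a median of -0.45, and 11 of 17 were lower in HCT116-p53KO with a median of -0.25. Early steps included ACAT2 (8.77 and 7.82), HMGCS1 (8.79 and 7.88) and IDI1 (9.91 and 9.16), which make acetoacetyl-CoA, HMG-CoA and isoprenoid units. Late steps included LSS (8.50 and 7.65), which closes the sterol ring, MSMO1 (11.26 and 9.95), NSDHL (10.68 and 9.80) and SC5D (10.17 and 9.29). Not all steps shared this: FDPS, the farnesyl diphosphate synthase (0.12), SQLE, the epoxidase (-0.22), and CYP51A1, the C14-demethylase that acts after LSS (-0.01), were short of 1.5-fold, and TM7SF2, a late sterol reductase, was higher by 0.70. Of 14 genes of SREBP control and sterol uptake 9 lay below 0, the median being -0.14. They ran from the high-density lipoprotein receptor SCARB1 and the sterol carrier STARD4 (-0.65 each) through the regulator SREBF2 (-0.40) and its brake INSIG1 (-0.41) to MBTPS1, the protease that releases SREBP (0.54). NCEH1, which releases cholesterol from its esters, stood at 9.76 and 8.25. SCD, the main fatty acid desaturase, stood at 12.44 and 11.55, whereas fatty acid synthesis genes as a list had 12 of 20 lower and a median of -0.06.

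Phospholipid enzymes held some of the largest single differences without a shared direction, with 18 of 31 lower and a median of -0.09. ABHD2, a serine hydrolase of lipids, stood at 9.06 and 7.01, and at 8.96 and 7.36 in HCT116-p53KO. The acyltransferases LPCAT2 (10.10 and 8.83) and MBOAT1 (9.89 and 8.72) and the secreted phospholipase PLA2G10 (6.44 and 5.34) were lower, while the plasma phospholipase PLA2G7 (7.83 and 9.09) was higher. In HCT116-p53KO those were at -0.56, -0.93, -2.03 and 0.78, so each had the same sign. Of 23 fatty acid oxidation and ketone genes 15 lay above 0, the median being 0.18, led by ACAT1, the mitochondrial thiolase, at 8.88 and 10.08.

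In mitochondria single components differed inside lists whose medians lay near 0. TOMM20, an import receptor of the outer membrane, stood at 10.27 and 8.38, or 3.72-fold lower, whereas its partner TOMM22 stood at 11.06 and 12.11, or 2.07-fold higher. Both kept those signs in HCT116-p53KO, at -1.16 and 0.81. The second probe set of TOMM22 differed by 0.72 in HCT116, short of 2-fold. The chaperonin cofactor HSPE1 (9.58 and 8.35) was lower, and the intermembrane chaperone TIMM8A (8.13 and 9.11) was higher. NDUFAB1, the acyl carrier protein, differed by -0.99 while complex I genes as a list had 19 of 34 lower and a median of -0.05, which became 0.02 on quantile normalization of the HCT116 arrays. The cytosolic enzyme IDH1 was lower in both lines (-0.92 and -0.97). PFKL, the liver-type phosphofructokinase, stood at 8.48 and 9.56, and GYS1, glycogen synthase, at 9.19 and 10.09.

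Among the relatives of NRF3 the signs were opposite, as NFE2L1 stood at 9.78 and 10.61 and NFE2L2 at 10.52 and 9.89. Their dimer partner MAFG differed by -0.40, the repressor BACH1 by -0.18 and the NRF2 inhibitor KEAP1 by -0.06. Antioxidant and electrophile response genes, the textbook targets of the family, were split, 17 of 32 lower with a median of -0.03, and the loess correction against level turned the sign of that median. NQO1 stood at 12.45 and 12.54, GCLM at 7.79 and 7.75 and HMOX1 at 9.78 and 10.27. Only GSR, glutathione reductase, at 12.54 and 11.73, and the exporter ABCC3, at 8.51 and 9.51, were past 1.5-fold. Of 34 proteasome genes, known targets of NRF1 and in some settings NRF3, 23 were lower with a median of -0.13 and none was past 1.5-fold, the range being -0.51 for PSMG3 to 0.44 for PSMC3.

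Several receptors and signal carriers of the TGF-beta, BMP and SMAD pathway, which controls growth and matrix genes, were lower in both lines. In HCT116 29 of 44 members were lower, 7 by at least 1.5-fold and 0 higher by that much, and the medians were -0.16 and, in HCT116-p53KO, -0.15. SKIL, a corepressor of SMADs, stood at 7.46 and 5.53, with 7.50 and 5.89 in HCT116-p53KO, and the second array of each pair lay under 6. The SMAD target ID2 (11.36 and 10.15), SMAD3 itself (11.11 and 10.03) and the receptors TGFBR1 (8.33 and 7.65) and TGFBR2 (10.22 and 9.60) were lower too. In HCT116-p53KO ID2 differed by -1.17, SMAD3 by -1.20, TGFBR1 by -0.28 and TGFBR2 by -0.51. SMAD2 (0.07), the partner of SMAD3, did not share this, and the ligand genes INHBA (0.56) and BMP4 (0.53) lay above 0.

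Integrin and focal adhesion genes included 5 of 25 that were at least 1.5-fold lower. PXN, the adaptor paxillin, stood at 9.70 and 8.53, though its second probe set differed by -0.12, and the mean of its probe sets by -0.64. The integrin chains ITGB5 (10.08 and 8.98), ITGAV (9.23 and 8.35), ITGA5 (10.22 and 9.43) and ITGA2 (10.11 and 9.35) were lower and ITGB8 (5.76 and 6.69) higher. Each of these 5 chains had the same sign in HCT116-p53KO, from -1.68 for ITGA2 to 1.15 for ITGB8. The coactivator TAZ, encoded by WWTR1, stood at 10.04 and 9.10, with -1.17 in HCT116-p53KO. ACTA2, smooth muscle actin, stood at 7.06 and 8.56 in HCT116 and differed by 0.18 in HCT116-p53KO, and its span overlaps that of FAS (0.31). Matrix genes split, with SPARC (8.30 and 6.97) and the inhibitor TIMP2 (10.46 and 9.20) lower and LAMA4, VCAN, SERPINE2 and ADAM15 at least 1.5-fold higher. SPARC differed by -0.20 in HCT116-p53KO, from a control level of 6.32.

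In the RAS-MAPK list 20 of 40 genes were lower and 20 higher, and the 5 at least 1.5-fold higher all belong to the immediate early genes, which answer mitogens and stress within minutes. JUN stood at 6.75 and 7.96, EGR1 at 9.43 and 10.33, FOSB at 6.83 and 7.68, DUSP1 at 8.38 and 9.20 and FOS at 7.01 and 7.60. All 5 differed less in HCT116-p53KO, at 0.49, -0.15, 0.30, 0.28 and 0.01. Other immediate early genes of the list did not pass 1.5-fold, among them JUND (0.56), JUNB (0.04), IER2 (-0.07) and IER3 (-0.42). The feedback phosphatase DUSP10 (-0.72) and the target ETV5 (-0.61) were lower. The chemokines CXCL1 (6.95 and 7.89), CXCL8 (6.50 and 7.20) and CXCL2 (6.38 and 7.06) and the NF-kappaB subunit RELB (7.53 and 8.23) were higher, and in HCT116-p53KO they were at -0.13, -0.19, 0.30 and 0.08. The WNT antagonist DKK1 stood at 11.57 and 12.54, and on both HCT116-p53KO arrays at 13.27.

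**Figure D5:**
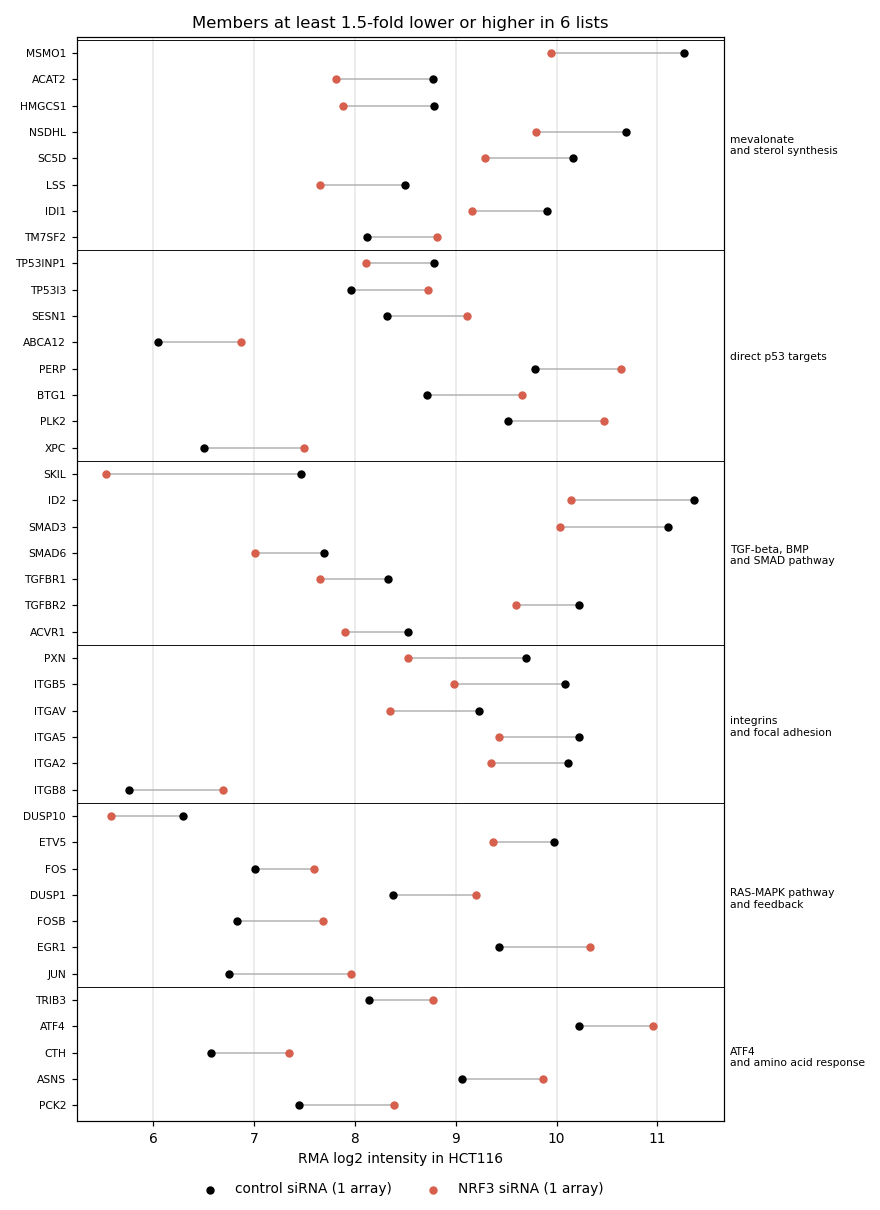
RMA log2 intensity of the members at least 1.5-fold lower or higher in 6 lists, with the control siRNA array in black and the NRF3 siRNA array in red, 1 array each. The pair of points of SKIL is the widest, 7.46 and 5.53, and in the ATF4 list every pair runs to a higher value.

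Of 44 interferon genes 29 lay below 0, and the median was -0.28, which became -0.085 when genes dim on both arrays were let in. IFNE, the epithelial type I interferon, stood at 6.90 and 4.35, or 5.86-fold lower, and ranks first among the lower genes, but its second value lies under 6, so that the size is uncertain. Its span overlaps MIR31HG, the host transcript of miR-31, which stood at 8.58 and 6.47. In HCT116-p53KO IFNE differed by -1.88 and MIR31HG by -1.03. APOBEC3B, a DNA cytidine deaminase, stood at 11.34 and 9.93 and differed by a like amount in HCT116-p53KO (-1.33). The induced genes IFIT1 (6.65 and 5.29), DTX3L (8.27 and 7.54), SAMD9 (7.20 and 6.49) and IFIH1 (6.59 and 5.97) were lower in HCT116, while in HCT116-p53KO they lay at 0.03 to 0.37 and started from lower control levels, at 5.81, 6.44, 4.48 and 5.41. The receptor chain IFNAR1 (-0.87) and the kinase JAK1 (-0.67) were lower, and STAT3 was higher by 0.84. ISG15 (0.01) and OAS1 (0.16), also interferon-induced, were not lower.

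Of 18 clock genes 15 lay below 0, the median being -0.35 and -0.18 in HCT116-p53KO. The activator CLOCK stood at 9.95 and 8.92, the repressor BHLHE40 at 9.24 and 8.25, and the REV-ERB genes NR1D1 at 9.58 and 8.65 and NR1D2 at 9.81 and 9.12. PER1 (-0.58), DBP (-0.50) and CRY1 (-0.46) followed, and BMAL1, the partner of CLOCK, differed by -0.07. NR1D1 overlaps THRA (-0.73), so these are not separate measurements for certain.

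Transport across the nuclear envelope and through the Golgi was lower by small amounts in many genes. Of 44 nuclear pore and transport genes 37 were lower with a median of -0.21 against 0.05 in HCT116-p53KO. The importin KPNA1 stood at 9.96 and 8.95 and the pore protein NUP50 at 9.04 and 8.10. Of 58 coat and Golgi genes 42 were lower with a median of -0.19, led by YIPF1 (8.26 and 6.82), and SFT2D2 (10.80 and 9.67) overlaps the pseudogene ANKRD36BP1. The exocytosis GTPase RAB27B stood at 7.75 and 6.54, and the signalling GTPase RRAGC, which carries amino acid supply to mTORC1, at 8.88 and 7.53. LGMN, the lysosomal protease legumain, stood at 10.85 and 8.75, and its list as a whole had 19 of 33 higher.

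Ribosomal protein genes differed by small amounts. Of 41 ribosomal protein genes 29 were higher, 0 passed 1.5-fold, the range was -0.26 for RPL22 to 0.45 for RPL11 and the median was 0.10, with 0.13 in HCT116-p53KO. Of 36 initiation and elongation genes 16 were lower and 20 higher, with 2 and 3 past 1.5-fold and a median of 0.07. EIF3F, an initiation factor subunit, stood at 11.03 and 12.12 and its second probe set also was higher, by 0.81. The cap-binding factor EIF4E (6.62 and 5.86) and the scaffold EIF4G1 (10.64 and 9.91) were lower. SETD7, a lysine methyltransferase, stood at 8.55 and 9.98 with 1.35 in HCT116-p53KO, and EZH2, the Polycomb methyltransferase, at 10.42 and 9.76 with -0.14.

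Growth control through PI3K and mTOR held differences in both directions and a median of 0.01, while the mean of the list was -0.04. The kinases RPS6KB1 (10.23 and 9.40), which acts on ribosomal protein S6, and PIK3C2A (10.20 and 9.42) and the mTORC2 subunit RICTOR (8.53 and 7.90) were lower. PDPK1, which activates AKT, differed by -0.87 in the probe set used and by -0.41 in the mean of its probe sets. IGF2R, the receptor that clears IGF2, was higher at 9.14 and 10.14, as were the mTOR inhibitor DEPTOR (6.51 and 7.14) and the insulin receptor substrate IRS1 (8.88 and 9.52).

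Protein folding and turnover genes were more often lower, by small amounts. Of 27 cytosolic chaperone genes 20 were lower with a median of -0.17, led by DNAJB1, an HSP70 partner, at 11.10 and 10.22, and by the chaperonin subunit CCT4 at 11.12 and 10.14, whose span overlaps COMMD1 (-0.93). Of 33 deubiquitinase genes 23 were lower with a median of -0.18, among them USP1, which acts in Fanconi anaemia repair, at 8.34 and 7.40. The ubiquitin ligase scaffolds CUL5 (8.52 and 7.77) and CUL2 (9.34 and 8.63) were lower. In autophagy, BECN1 (8.40 and 9.18) and ATG12 (8.85 and 9.51) were higher and PIK3R4 (9.67 and 8.75), a partner of BECN1, was lower. All 3 kept their signs in HCT116-p53KO, at 0.47, 0.55 and -0.46.

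Of 45 colon transcription factor and differentiation genes 22 were lower, and the median, 0.01, turned just below 0 with the loess correction against level. Of the colon markers named at the outset, EPCAM, an adhesion molecule, stood at 11.42 and 10.91. The keratin gene KRT18 stood at 12.32 and 11.73, and the keratin gene KRT8 differed by -0.51. CDX2, also named there, differed by 0.09. Others of the 17 markers lay on both sides of 0, such as CDX1 (0.22), LGALS4 (0.32) and CLDN4 (-0.24). In HCT116-p53KO EPCAM differed by 0.14, KRT18 by -0.44 and KRT8 by -0.73. ELF3, an epithelial transcription factor, stood at 9.25 and 8.13, and SNAI2, a repressor of epithelial genes, at 7.31 and 6.55. The progenitor factor MYB (6.83 and 7.74) and the vitamin D receptor VDR (7.80 and 8.50) were higher, with 1.34 and 0.71 in HCT116-p53KO. At cell junctions CDH1, which encodes E-cadherin, stood at 10.09 and 9.38 and CLDN12, a claudin, at 9.73 and 8.73.

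Gene families sorted by symbol regroup the same values, and several share members with the lists above, such as CENPE, CENPC and NUP50. Centromere protein genes had a median of -0.46, nucleoporins -0.26, centrosomal CEP genes -0.25 and ubiquitin-specific proteases -0.20, and each stayed below 0 under every normalization and filter tried. Of 43 olfactory receptors compared 35 lay above 0 around a median of 0.28. Long intergenic noncoding RNAs lay above 0 in 71 of 97 and antisense RNAs in 85 of 117, each with a median of 0.14. Of these families 361, 206 and 181 members were measured, and those under 6 on both arrays were left out. A member dim on 1 array could enter through the other. Across the alternatives tried the medians ran from 0.13 to 0.39, from 0.04 to 0.18 and from 0.06 to 0.14. The dimmest of the 5 bins of all genes itself had a median of 0.12 and the brightest -0.07, and the part of level in these families was not tested. Solute carriers, F-box proteins and TMEM genes had medians near 0 whose sign changed between alternatives.

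Probe sets of a gene disagreed in sign with 1 of them past 1.5-fold in 9 genes. FAF2, which extracts proteins from the endoplasmic reticulum, differed by -1.13 in 1 probe set and 0.04 in the other. KMT5A, the histone H4 lysine methyltransferase, ranged from -0.81 to 0.00, MIGA1, a mitochondrial fusion gene, from -0.33 to 0.72, and DET1, a ubiquitin ligase component, from -0.70 to 0.37. Values of these genes depend on the probe set.

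Of the 144 genes at least 2-fold lower in HCT116, 135 were also below 0 in HCT116-p53KO, where 49.5% of all genes were, and 91 of them were lower by at least 1.5-fold, against 2.38%. Their median there was -0.71. In that line 0.431% of all genes were at least 2-fold lower and 0.278% higher. Of the 31 at least 2-fold higher, 27 were above 0 in HCT116-p53KO, where 50.5% of all genes were, and 19 at least 1.5-fold higher, where 3.63% were, with a median of 0.78. Lower genes with a like size in both lines included MEST, an imprinted hydrolase (-1.44 and -1.34), and RMND5A, a ubiquitin ligase subunit (-1.35 and -1.07). RBMS1, an RNA-binding protein, differed by -2.21 and -0.94, and its second probe set in HCT116 by -0.69. Other genes past 2-fold in HCT116 were short of 1.5-fold in HCT116-p53KO. Among these were C5orf34 (-1.34 and -0.03), SGO2 (-1.37 and -0.23), the carboxypeptidase CPA4 with the opposite sign (1.37 and -0.43), the signalling regulator RGS6 (1.38 and 0.07) and the surface glycoprotein CD24 (1.21 and 0.20). An array lay under 6 for 18 of the 144 and 6 of the 31, RGS6 included, where the size of a difference is uncertain. OLFM2, an olfactomedin, had the largest difference above 0 of the genes compared, 9.11 and 10.73, with 0.55 in HCT116-p53KO.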

How the data were processed

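The deposited values are RMA log2 intensities of 33297 probe sets on 6 Affymetrix whole-transcript arrays. The authors made them with Expression Console, per the submitters' processing notes. The sources used here do not say which of the arrays shared a normalization. Labelled RNA was made from 100 ng of total RNA, per the labels' protocols.

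Probe sets were named from the platform annotation: 19460 had 1 symbol, 1754 several and 12083 none listed. Each gene was read from its brightest probe set over 6 arrays. Differences were taken between single arrays, so no test, SD or p-value was possible. The precision is limited by the number of arrays. Genes under 6 on both HCT116 arrays were left out. Members and lists were chosen with earlier results of these data known. Named genes are NFE2L3, the 40 largest differences each way, members of the 69 lists and 30 families, and genes whose probe sets disagreed. Promoters are RefSeq windows. Other normalizations, filters, thresholds and probe set rules were tried. The code was tested on simulated data. Python 3.11.15, numpy 2.4.6 and pandas 2.3.3 were used.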

Additional observations from a re-analysis of the deposited data

Results flagged for a closer look

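Probe sets that carry no single gene symbol lay outside the gene comparison. Of 7857 such probe sets at 6 or above on either HCT116 array, 188 were at least 2-fold lower and 65 at least 2-fold higher after NRF3 siRNA. That is 3.22% past 2-fold, against 1.247% of the named genes. The first share counts every such probe set and the second 1 probe set per gene, so they are not like for like. Whether the 2 kinds of probe set differ was not tested. The probe sets without a single symbol are unnamed here.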

How the results depend on the processing

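NFE2L3 lay between -2.33 and -2.36 under every alternative. Lowering the threshold to 1.5-fold raised the count of lower genes from 144 to 845 and of higher genes from 31 to 381. Quantile normalization over all 6 arrays gave 47 higher genes. The median of interferon genes, -0.28, became -0.085 with no filter on level, where genes dim on both arrays entered. The cause of the other changes was not tested. No named gene past 1.5-fold changed sign, but the medians of 9 of the 69 lists, all near 0, did under a normalization, filter or probe set rule. Of 347 named genes past 1.5-fold, 316 stayed past it with quantile normalization of the 2 HCT116 arrays, 317 with loess and 344 with the mean of probe sets, which moved RBMS1 from -2.21 to -1.45, PXN from -1.17 to -0.64 and PDPK1 from -0.87 to -0.41. No paired analysis was possible because each group has 1 array. Differences in genes near an intensity of 6 are the least certain.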

Other observations

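Few genes went opposite ways in the 2 lines. Of 397 genes past 1.5-fold in both, 6 did, and they are named here after their values were seen. SPP1, the gene of the secreted phosphoprotein osteopontin, stood at 6.97 and 6.33 in HCT116 and at 6.02 and 6.90 in HCT116-p53KO. The kinase gene FRK differed by -0.70 and 0.71, the interferon-induced gene NMI by -0.75 and 0.65 and THOC1, an mRNA export gene, by -0.74 and 0.59. C2orf66 and THUMPD3-AS1 were the other two. NMI and C2orf66 lay under 6 on both HCT116-p53KO arrays and on the NRF3 siRNA array of HCT116. FRK stood at 5.58 on the control array of HCT116-p53KO. THUMPD3-AS1 stood at 5.39 on the control array of HCT116 and at 5.22 on the NRF3 siRNA array of HCT116-p53KO. Under 6 the size of a difference is uncertain. The difference between lines was not tested, and the 2 lines had different sizes of NFE2L3 difference, -2.35 and -1.55.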
